A study of Mus musculus with 17 samples.

Results

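The S100 genes encode small calcium-binding proteins. 8 of them were followed here across 2 subsets of CD11b+ splenic myeloid cells and 3 stages of tumour growth: S100a8, S100a9, S100a4, S100a6, S100a10, S100a11, S100a13 and S100a1. They were picked from the genes of the S100 name that carry a feature of their own on the array, with earlier results of these data known. All 8 were measured, among 19938 genes in all. The 10 other genes of the family name that were measured are described further below. For S100a11, which has 2 features of its own, the brighter one was used. CD11b is a surface integrin of myeloid cells. The source was spleen, pooled over female BALB/c mice. Mo cells, the monocytic subset, were sorted as Ly-6C high and Ly-6G low, and PMN cells, the polymorphonuclear subset, as Ly-6C low and Ly-6G high. The mice were naive, with no tumour injected, or had carried subcutaneous Her-2/CT26 tumour cells for 3 or 6 weeks. The submitters call the cells of every stage, naive included, Mo-MDSCs and PMN-MDSCs (myeloid-derived suppressor cells), and set out to find which factors make them more suppressive as tumours grow. Mo cells of naive, 3-week and 6-week mice had 3 arrays each, and PMN cells had 4, 2 and 2.

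S100 proteins work inside the cell, where calcium binding exposes a surface that grips partner proteins such as annexins and myosin, and several of them also act outside it. S100A8 and S100A9 pair as calprotectin, the main cytosolic protein of neutrophils, which binds zinc and manganese and, once released, signals through TLR4 and RAGE. In tumour-bearing mice these proteins are known as attractants and products of myeloid suppressor cells. S100A4 binds the heavy chain of non-muscle myosin, S100A6 binds the calcyclin-binding protein Cacybp, S100A10 pairs with annexin A2 and S100A11 with annexin A1.

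Values are intensities from the Affymetrix Mouse Gene 1.0 ST array, given on the log2 scale, so that a difference of 1 is a doubling. The subsets appear to have been normalized apart: 2 Mo arrays shared a median of 942.5 distinct values and 2 PMN arrays 251, but a Mo and a PMN array shared 146. Levels in Mo and PMN are therefore set side by side without a test, and tests are kept to stage changes within a subset and to the difference between those changes. The monocyte marker genes summed to an intensity of 14000 to 22700 in the Mo arrays and 2130 to 3460 in the PMN arrays, and the neutrophil marker genes to 3410 to 6270 in Mo and 17700 to 39700 in PMN. Itgam, the gene of CD11b, lay at 11.19 to 11.59 in Mo and 10.86 to 11.93 in PMN arrays. 1 Mo array stood apart: replicate 2 of 6 weeks had Ly6g, the gene of the PMN gating antigen, at 8.95, against 6.56 and 6.43 in the other 6-week Mo arrays. Replicate 1 of the naive and of the 3-week Mo arrays had the B cell gene Ms4a1 at 8.05 and 7.52, against 5.58 to 6.33 in the other 7 Mo arrays.

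The promoters of 4 of these S100 genes are shown first, from 250 bases before to 50 after the RefSeq start on GRCm38.p6. Among the windows of the S100 genes, only these 4 held a match to a motif searched here. They are the S100a8 window at chr3:90668821-90669120 on the plus strand, the S100a9 window at chr3:90695672-90695971 on the minus strand, the S100a4 window at chr3:90603520-90603819 on the plus strand and the S100a11 window at chr3:93520246-93520545 on the plus strand. Each is written 5′ to 3′ along its gene, and capitals mark the motif matches listed after them.
S100a8: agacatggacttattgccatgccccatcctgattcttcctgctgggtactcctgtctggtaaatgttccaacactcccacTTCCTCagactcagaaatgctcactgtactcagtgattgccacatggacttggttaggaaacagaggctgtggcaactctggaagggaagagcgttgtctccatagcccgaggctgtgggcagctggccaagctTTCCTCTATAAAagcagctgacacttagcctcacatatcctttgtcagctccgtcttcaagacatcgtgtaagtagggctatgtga
S100a9: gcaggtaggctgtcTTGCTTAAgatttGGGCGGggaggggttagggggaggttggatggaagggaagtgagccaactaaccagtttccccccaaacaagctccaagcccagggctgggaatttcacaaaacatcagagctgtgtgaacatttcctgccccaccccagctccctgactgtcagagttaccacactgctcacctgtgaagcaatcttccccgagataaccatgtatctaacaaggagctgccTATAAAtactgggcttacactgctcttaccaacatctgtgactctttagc
S100a4: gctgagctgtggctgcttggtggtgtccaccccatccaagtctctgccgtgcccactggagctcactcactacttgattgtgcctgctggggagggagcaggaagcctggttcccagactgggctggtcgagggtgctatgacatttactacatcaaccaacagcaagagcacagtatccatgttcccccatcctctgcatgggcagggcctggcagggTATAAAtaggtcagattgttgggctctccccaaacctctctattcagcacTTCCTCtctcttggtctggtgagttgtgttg
S100a11: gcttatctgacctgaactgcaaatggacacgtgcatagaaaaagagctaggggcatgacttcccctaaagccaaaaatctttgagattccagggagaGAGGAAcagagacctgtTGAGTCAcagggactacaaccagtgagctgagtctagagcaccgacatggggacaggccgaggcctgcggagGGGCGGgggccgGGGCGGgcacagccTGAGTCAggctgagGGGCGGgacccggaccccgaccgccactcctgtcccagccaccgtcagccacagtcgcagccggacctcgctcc
6 motifs were searched on both strands: TATAAA (the TATA box), TTGCNNAA (C/EBP), GAGGAA (PU.1), TTCNNNGAA (STAT), TGANTCA (AP-1) and GGGCGG (Sp1). Among all 32851 promoter windows of that length, TATAAA stood in 13.6%, TTGCNNAA in 10.8%, GAGGAA in 28.3%, TTCNNNGAA in 8.3%, TGANTCA in 7.81% and GGGCGG in 35.7%. The S100a8 window held TATAAA at 30 bases before the start, directly after TTCCTC, the complement of GAGGAA, which stood at 36 and again at 170 bases before the start. The S100a9 window held TTGCTTAA at 236 and GGGCGG at 223 bases before the start, and TATAAA at the annotated first base itself. The S100a4 window held TATAAA at 31 bases before the start and TTCCTC at 19 after it. The S100a11 window held no TATAAA; it held GAGGAA at 153, TGAGTCA at 136 and 38, and GGGCGG at 64, 52 and 24 bases before the start. The windows of S100a6, S100a13 and S100a1 held none of the 6 motifs, and S100a10 is not shown. A match is a description of the letters and was not tested as a binding site.

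In Mo cells S100a8 rose 17.9-fold and S100a9 14.7-fold over naive by 6 weeks, the largest changes among the 8 genes. S100a8 had a log2 intensity of 6.87, 7.52 and 7.93 in the naive Mo arrays, 8.16, 8.94 and 8.94 at 3 weeks, and 10.99, 12.20 and 11.60 at 6 weeks. No array of one stage reached the range of the next. S100a9 lay at 6.61, 6.93 and 7.42 in naive, 7.35, 7.59 and 7.71 at 3 weeks, and 10.23, 11.62 and 10.75 at 6 weeks. Its naive and 3-week arrays overlapped, and its 6-week arrays stood clear of both. The 6-week over naive change was 4.16 ± 0.28 (SE, limma, adjusted p = 5.69e-08) for S100a8 and 3.88 ± 0.25 (adjusted p = 4.58e-08) for S100a9. Most of it lay between 3 and 6 weeks, where S100a8 rose by 2.92 ± 0.28 (adjusted p = 2.44e-06) and S100a9 by 3.31 ± 0.25 (adjusted p = 4.47e-07). By 3 weeks S100a8 had risen by 1.24 ± 0.28 (adjusted p = 0.0262), while the change of S100a9 was 0.57 ± 0.25 (adjusted p = 0.128). In whole-subset RNA, a larger share of cells with the transcript and more of it per cell cannot be told apart.

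S100a8 minus S100a9 within an array shows whether the pair kept step, since the difference between 2 probes has a meaning only when it is set against that of another array. It was 0.26, 0.59 and 0.51 in naive Mo, 0.81, 1.35 and 1.22 at 3 weeks, and 0.76, 0.58 and 0.85 at 6 weeks. Naive and 3-week arrays did not overlap. The 3-week change of S100a8 exceeded that of S100a9 by 0.67 (two-sided exact permutation p = 0.1, the smallest that 3 arrays against 3 allow, so the design cannot pass the threshold). At 6 weeks against naive the excess was 0.28 (exact permutation p = 0.2).

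Granule genes rose with the pair in Mo cells by 6 weeks, and markers of several cell types rose or fell. The 6 specific granule genes, made by developing neutrophils, summed to an intensity of 1210 to 2040 in naive Mo, 2170 to 3710 at 3 weeks and 14600 to 26400 at 6 weeks. The 5 precursor genes, among them Mpo of the azurophil granule, summed to 457 to 615, 555 to 834 and 4470 to 11700. The 9 measured neutrophil markers of 10 summed to 3410 to 3480, 3440 to 3990 and 3610 to 6270. In naive Mo Cd177 and Csf3r were the brightest of the 9, at mean intensities of 1790 and 1210, so the naive sum is mostly theirs. 4 of the 9 rose by 6 weeks over naive (Ly6g, Cxcr2, Il1r2 and Trem1) and 1 fell (Csf3r, which did not pass with median centring), where 21.8% of all genes rose and 24.4% fell, and 2 rose without 6-week replicate 2 or with values under 6 raised to 6. The 8 monocyte markers summed to 19000 to 21200, 19300 to 22700 and 14000 to 17200. 4 of the 8 fell by 6 weeks over naive (Csf1r, Cx3cr1, Ly86 and Fcgr1) and 1 rose (Klf4), and 2 fell with each array centred on its median (Csf1r and Cx3cr1). The 5 T and NK cell markers summed to 636 to 937, 651 to 950 and 449 to 519, and 3 of them fell (Cd3e, Cd3g and Cd4). The B cell markers summed to 608 to 1230, 504 to 1050 and 415 to 556, and 3 of the 4 measured fell, against 0 with median centring or without 6-week replicate 2. Cxcr2 and Retnlg, neutrophil genes that are bright in PMN arrays, lay at 7.25 and 8.07 in 6-week replicate 2, against 5.66 and 6.09, and 5.55 and 5.70, in replicates 1 and 3. Il1r2, of the same list, lay at 8.79, 10.39 and 9.83 in replicates 1, 2 and 3 of 6 weeks, against 5.79 to 6.04 in naive. Trem1 lay at 8.06 to 8.37 against 6.31 to 6.55. Without 6-week replicate 2 Il1r2 and Trem1 still passed as rises and Cd177 as a fall, while Ly6g no longer passed (0.42, adjusted p = 0.161). In that fit S100a8 still stood 3.86 ± 0.27 (adjusted p = 4.34e-07) and S100a9 3.50 ± 0.19 (adjusted p = 2.32e-08) above naive. With the 2 arrays high in Ms4a1 left out as well, the changes were 3.57 for S100a8 and 3.31 for S100a9. The part of granule, precursor and other cells in the rise was not tested.

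**Figure D1:**
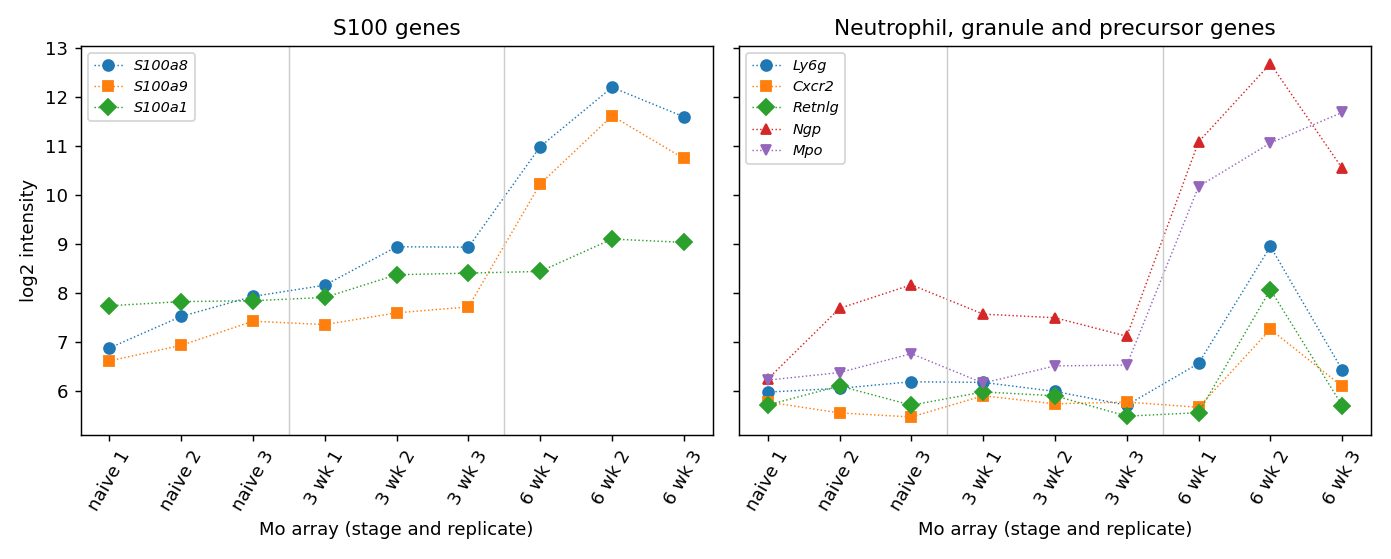
Log2 intensity in each of the 9 Mo arrays (horizontal axis, stage and replicate) of S100a8, S100a9 and S100a1 (left) and of Ly6g, Cxcr2, Retnlg, Ngp and Mpo (right); dotted lines only join the points of a gene. S100a8 and S100a9 lay above 10 in each 6-week array, while Ly6g lay at 8.95 in 6-week replicate 2 and at 6.56 and 6.43 beside it.

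In PMN cells the pair was bright at every stage and rose less on the log2 scale. S100a8 lay at 12.26, 12.55, 12.49 and 12.20 in naive PMN arrays, 12.33 and 12.38 at 3 weeks, and 13.12 and 13.20 at 6 weeks. S100a9 lay at 12.48, 12.26, 12.40 and 12.41 in naive, 12.18 and 12.34 at 3 weeks, and 12.96 and 13.04 at 6 weeks. For both genes the 6-week arrays stood above all others, and naive and 3-week arrays overlapped. S100a8 rose by 0.79 ± 0.29 over naive (adjusted p = 0.0267) and S100a9 by 0.61 ± 0.26 (adjusted p = 0.0494). These calls rest on single arrays and on the scaling. S100a9 did not pass when any of the 6 arrays was left out (adjusted p 0.0621 to 0.185), and S100a8 lost its call on leaving out naive replicate 1 (0.0527), naive replicate 4 (0.0565), 6-week replicate 1 (0.0914) or 6-week replicate 2 (0.123). Over 3 weeks S100a8 rose by 0.81 ± 0.34 (adjusted p = 0.0495) and S100a9 by 0.74 ± 0.30 (adjusted p = 0.0446), and neither passed when any of the 4 arrays was left out (0.119 to 0.152 for S100a8 and 0.0954 to 0.161 for S100a9). With joint quantile normalization of all 17 arrays the changes over naive were 0.65 for S100a8 (adjusted p = 0.0568) and 0.37 for S100a9 (adjusted p = 0.218), and those over 3 weeks had adjusted p of 0.0916 and 0.149. With values under 6 raised to 6, all 4 calls were lost as well (adjusted p 0.0809 to 0.127). The specific granule sum, 14800 to 17200 in naive and 12400 to 13300 at 3 weeks, was 44000 to 46900 at 6 weeks in these arrays, and the B cell sum, 1960 to 2160 and 1660 to 2280, was 629 to 643. The neutrophil marker sum, 17700 to 20900 in naive and 19200 to 19800 at 3 weeks, was 37700 to 39700 at 6 weeks. Of its 9 genes 6 rose over naive and 1 fell (Csf3r), where 25.5% of all genes rose and 40.0% fell. The precursor sum, 353 to 399 and 350 to 359, was 597 to 696. Their part in the rise was not tested.

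The rise by 6 weeks was larger in Mo than in PMN by 3.37 ± 0.40 for S100a8 (interaction term in limma, adjusted p = 3.02e-05) and 3.27 ± 0.36 for S100a9 (adjusted p = 1.57e-05). On the deposited scale, with no test, Mo minus PMN was -4.94 in naive, -3.68 at 3 weeks and -1.56 at 6 weeks for S100a8, and -5.40, -4.70 and -2.14 for S100a9. After quantile normalization of all 17 arrays together the S100a8 differences were -5.49, -4.36 and -2.23 and those of S100a9 -5.94, -5.22 and -2.67.

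**Figure D2:**
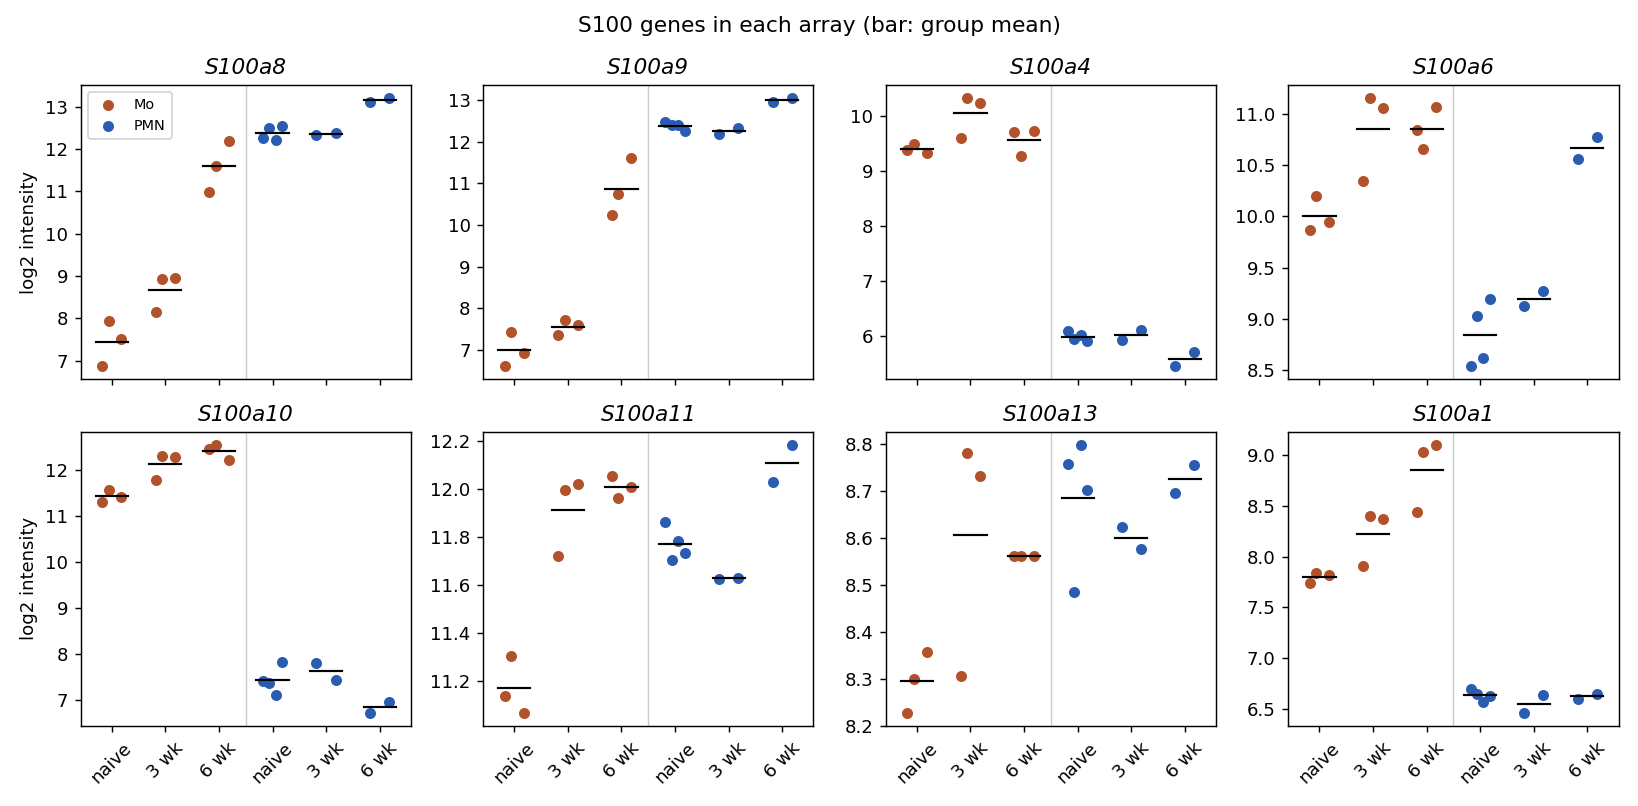
Log2 intensity of the 8 S100 genes in each array by stage (horizontal axis), with Mo at the left and PMN at the right of each panel; each point is 1 array, each bar a group mean, and vertical scales differ between panels. S100a8 and S100a9 lay between 12.18 and 13.20 in all PMN arrays, and climbed to 10.23 to 12.20 in 6-week Mo arrays.

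S100a4, whose protein binds non-muscle myosin and is known for its role in cell motility and metastasis, was bright in Mo and dim in PMN. It lay at 9.38, 9.34 and 9.50 in naive Mo arrays, 9.60, 10.24 and 10.33 at 3 weeks, and 9.72, 9.73 and 9.27 at 6 weeks. The 3-week arrays stood above all naive ones, and the 6-week arrays overlapped both other stages. It rose by 0.65 ± 0.16 at 3 weeks (adjusted p = 0.0338) and stood 0.16 ± 0.16 above naive at 6 weeks (adjusted p = 0.393), with -0.48 ± 0.16 between 3 and 6 weeks (adjusted p = 0.0832). S100a4 is the only 1 of the 5 genes called at 3 weeks that was not called at 6 weeks. Its 3-week call was lost without naive Mo replicate 1 or 2 or 3-week Mo replicate 2 or 3 (adjusted p 0.141 to 0.25). That call was also lost with joint quantile normalization (0.0814), with values under 6 raised to 6 (0.0682) and with the Mo arrays fitted alone (0.175). In PMN arrays S100a4 lay at 6.08, 5.91, 5.93 and 6.01 in naive, 5.92 and 6.11 at 3 weeks, and 5.44 and 5.71 at 6 weeks. Both 6-week values stood below the rest, a fall of 0.40 ± 0.17 on the log2 scale (adjusted p = 0.0451). That PMN call was lost when any of the 6 arrays was left out (adjusted p 0.0513 to 0.305) and when each array was centred on its median (-0.21, adjusted p = 0.4).

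S100a6, or calcyclin, a partner of Cacybp that is known from dividing cells, rose in both subsets. In Mo it lay at 9.86, 9.95 and 10.20 in naive, 10.35, 11.06 and 11.15 at 3 weeks, and 10.85, 11.06 and 10.66 at 6 weeks. All tumour-stage Mo arrays stood above the naive ones, and the 3-week and 6-week arrays overlapped. It rose by 0.85 ± 0.20 at 3 weeks (adjusted p = 0.0314) and by 0.85 ± 0.20 at 6 weeks over naive (adjusted p = 0.00365). In PMN it lay at 8.54, 9.20, 9.03 and 8.62 in naive, 9.13 and 9.27 at 3 weeks, and 10.56 and 10.78 at 6 weeks. The 6-week PMN arrays stood clear of all others, 1.82 ± 0.21 above naive (3.54-fold, adjusted p = 2.52e-06) and 1.47 ± 0.24 above 3 weeks (adjusted p = 0.000136). S100a6 was the only gene of the 8 with a subset difference that passed in favour of PMN. Mo change minus PMN change was -0.97 ± 0.29 for 6 weeks over naive (adjusted p = 0.0265) and -1.47 ± 0.31 for 6 over 3 weeks (adjusted p = 0.00238). The first of these did not pass in 6 of 12 fits that left out 1 array (naive Mo replicate 3, 6-week Mo replicate 3, naive PMN replicate 1 or 4, or 6-week PMN replicate 1 or 2; adjusted p 0.0522 to 0.131), nor with median centring (0.0732) or with values under 6 raised to 6 (0.0676).

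S100a10, which pairs with annexin A2 at the membrane and, unlike its relatives, does not need calcium to do so, moved in opposite directions in the subsets. In Mo it lay at 11.31, 11.42 and 11.58 in naive, 11.78, 12.29 and 12.31 at 3 weeks, and 12.46, 12.23 and 12.55 at 6 weeks. Every tumour-stage Mo array exceeded every naive one. It rose by 0.69 ± 0.17 at 3 weeks (adjusted p = 0.0342) and by 0.98 ± 0.17 at 6 weeks (1.97-fold, adjusted p = 0.000516). In PMN it lay at 7.41, 7.83, 7.37 and 7.12 in naive, 7.81 and 7.43 at 3 weeks, and 6.72 and 6.95 at 6 weeks, where both arrays stood below all others. It fell by 0.60 ± 0.18 on the log2 scale at 6 weeks over naive (adjusted p = 0.0095) and by 0.78 ± 0.21 at 6 over 3 weeks (adjusted p = 0.00566). The Mo change exceeded the PMN change by 1.58 ± 0.25 (adjusted p = 0.000369). The PMN fall over naive was -0.40 (adjusted p = 0.138) with each array centred on its median, and it did not pass without 6-week replicate 1 (0.104), while the subset difference was 1.57 (adjusted p = 0.00316) with centring. The fall over 3 weeks did not pass without 3-week replicate 1 (0.0671) or 6-week replicate 1 (0.053), nor with centring (0.0804).

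S100a11, a partner of annexin A1 that is known from membrane repair, was bright in both subsets. In Mo it lay at 11.14, 11.07 and 11.30 in naive, 11.72, 12.02 and 12.00 at 3 weeks, and 12.05, 12.01 and 11.96 at 6 weeks. The tumour-stage arrays all stood above the naive ones with little spread. It rose by 0.74 ± 0.10 at 3 weeks (adjusted p = 0.00173) and by 0.84 ± 0.10 at 6 weeks over naive (adjusted p = 9.45e-06). Of the 5 rises called in Mo at 3 weeks, it was the only 1 that passed whichever of the 6 arrays was left out. In PMN it lay at 11.86, 11.73, 11.71 and 11.78 in naive, 11.63 and 11.63 at 3 weeks, and 12.03 and 12.18 at 6 weeks. The 3 stages did not overlap, and the 6-week level stood 0.34 ± 0.10 above naive (adjusted p = 0.00874) and 0.48 ± 0.12 above 3 weeks (adjusted p = 0.0031). The Mo rise by 6 weeks exceeded the PMN rise by 0.50 ± 0.14 (adjusted p = 0.0183). The other feature annotated to S100a11 gave 0.89 in Mo and 0.29 in PMN for 6 weeks over naive, and the tables used here do not say where on the genome the probes of either feature lie. The PMN call over naive was lost without 6-week replicate 2 (adjusted p = 0.112) and with joint quantile normalization (0.22, adjusted p = 0.0644), and the subset difference without naive Mo replicate 2 (0.054) or 6-week PMN replicate 1 (0.113) and with median centring (0.0781).

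S100a13, which takes part in the release of FGF1 and interleukin 1 alpha from cells without a signal peptide, passed none of the tests as fitted. It lay at 8.23, 8.36 and 8.30 in naive Mo, 8.31, 8.73 and 8.78 at 3 weeks, and 8.56 in all 3 arrays at 6 weeks, which are listed at one and the same intensity of 377.6. PMN arrays ran from 8.48 to 8.80 over all stages. The 6-week over naive change was 0.27 (95% interval 0.03 to 0.50, adjusted p = 0.0621) in Mo and 0.04 (-0.21 to 0.29, adjusted p = 0.783) in PMN.

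S100a1, best known from heart and skeletal muscle, where it regulates calcium release, rose in Mo and had no call in PMN. It lay at 7.74, 7.82 and 7.84 in naive Mo, 7.91, 8.37 and 8.40 at 3 weeks, and 8.44, 9.10 and 9.03 at 6 weeks. The stages did not overlap. The 6-week level stood 1.06 ± 0.15 above naive (2.08-fold, adjusted p = 7.98e-05) and 0.63 ± 0.15 above 3 weeks (adjusted p = 0.012), while the 3-week change of 0.43 ± 0.15 did not pass (adjusted p = 0.0793). PMN arrays ran from 6.46 to 6.70 over all stages, and the PMN change by 6 weeks was -0.01 (95% interval -0.35 to 0.32). The subset difference in the 6-week change was 1.07 ± 0.22 (adjusted p = 0.00267). The rise after 3 weeks did not pass without 3-week replicate 1 (0.055) or 6-week replicate 2 (0.0892) or 3 (0.0779).

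**Figure D3:**
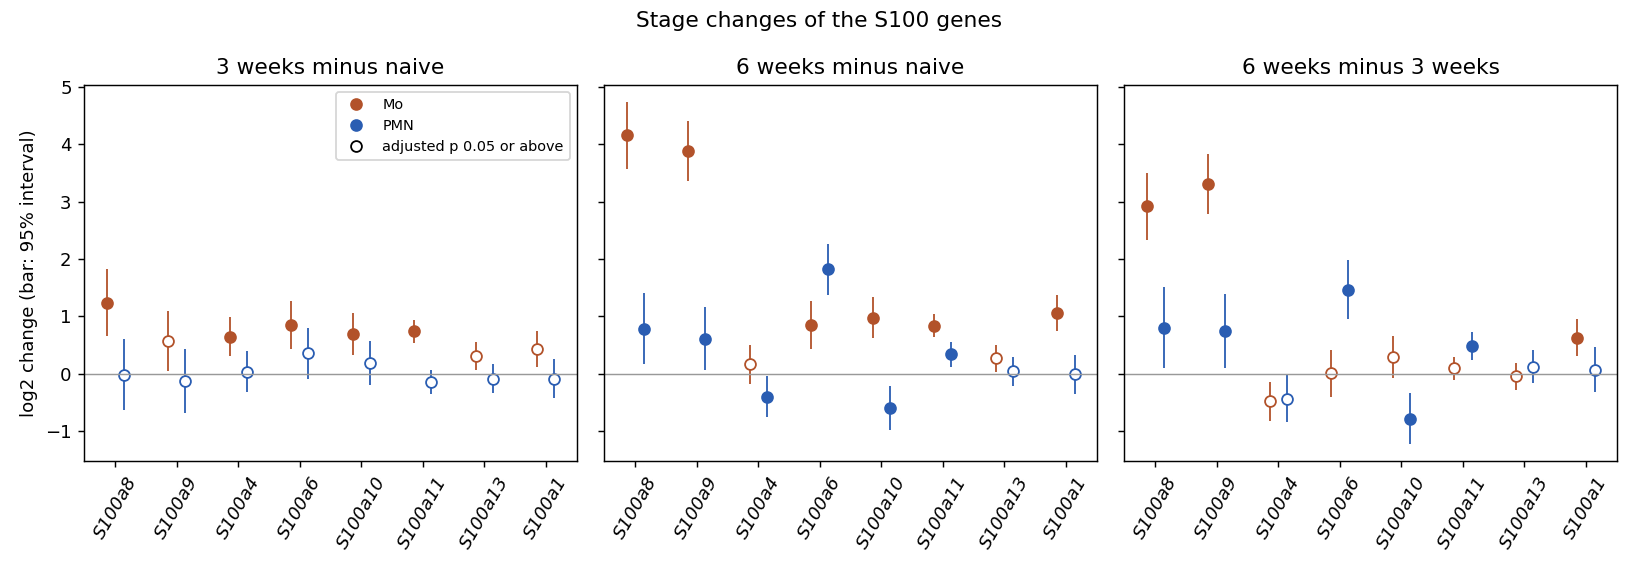
Log2 change of the 8 S100 genes (horizontal axis) at 3 weeks and 6 weeks over naive and at 6 over 3 weeks, in Mo (left of each pair) and PMN; bars are 95% intervals and open circles did not pass at an adjusted p below 0.05. At 6 weeks over naive the changes of S100a8 (4.16) and S100a9 (3.88) stand far above the rest in Mo, and in PMN S100a6 (1.82) is highest and S100a10 (-0.60) lowest.

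Counted together, 5 of the 8 S100 genes rose and 0 fell in Mo at 3 weeks over naive, where 6.03% of all genes passed and 5.20% rose. 6 of 8 rose and 0 fell in Mo at 6 weeks over naive, where 46.2% of all genes passed, 21.8% rising and 24.4% falling. Of the 10 other genes of the family name 0 rose and 5 fell there, with 1 falling after median centring. 3 of 8 rose in Mo at 6 over 3 weeks, where 7.51% passed and 4.38% rose. The median change of the 8 was 0.67, 0.92 and 0.19 in these comparisons, beside -0.05, -0.09 and -0.03 over all genes. With the Mo arrays fitted alone 0 of the 8 passed at 3 weeks. 4 of the 5 calls, all but that of S100a11, were lost without naive Mo replicate 1 or 2 or 3-week Mo replicate 2 or 3, with adjusted p of 0.119 to 0.21 for S100a8, 0.141 to 0.25 for S100a4, 0.131 to 0.238 for S100a6 and 0.14 to 0.241 for S100a10. At 6 weeks the calls of S100a8, S100a9, S100a6, S100a10, S100a11 and S100a1 passed whichever of the 6 arrays was left out. Over all genes, centring each array on its median added 0.14 to the 3-week and 0.19 to the 6-week Mo changes over naive, and the share of calls that rose was 97.9% at 3 weeks and 80.8% at 6 weeks, against 86.2% and 47.2% as deposited. With joint quantile normalization those shares were 91.5% and 66.5%.

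In PMN at 3 weeks over naive 0 of 8 genes passed and 0% of all genes did. At an unadjusted p below 0.05 limma called 0 of the 8 and 374 of 19938 genes, and 0 of the 8 passed under any alternative run. At 6 weeks over naive 4 rose and 2 fell, where 65.4% of all genes passed, 25.5% rising and 40.0% falling. At 6 over 3 weeks 4 rose and 1 fell, where 58.7% passed, 23.7% rising and 34.9% falling. The median change of the 8 was 0.19 and 0.30 in these 2 comparisons at 6 weeks, beside -0.18 and -0.20 over all genes. 6 and 5 calls of 8 are near the share of all genes that passed, so these counts are no result about the S100 genes. Median centring added 0.19 to the PMN changes over naive and 0.21 to those over 3 weeks, and the share of calls that rose was then 62.2% and 68.4%, against 38.9% and 40.4% as deposited. With joint quantile normalization it was 47.1% and 51.6%.

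For the difference between the subsets, 0 of 8 genes passed for the 3-week change over naive, where 0.00502% of all genes did. At an unadjusted p below 0.05, 5 of the 8 and 3312 of all genes passed there in limma, and S100a11 came nearest, with a difference of 0.89 ± 0.14 (adjusted p = 0.0511). For the 6-week change over naive, 5 of 8 were higher in Mo and 1 lower, where 17.5% of all genes passed, 6.47% higher and 11% (2197 of 19938 genes) lower. For the 6-week change over 3 weeks, 3 were higher in Mo (S100a8 by 2.11, S100a9 by 2.57 and S100a10 by 1.07) and 1 lower, where 29.2% passed, 11.9% higher and 17.3% lower. With median centring the S100a10 difference over 3 weeks was 0.91 (adjusted p = 0.0552).

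6 of the 8 genes lie within 184.7 kb of mouse chromosome 3 on GRCm38.p6, from S100a1 at 90511034 to 90514330 to S100a9 at 90692630 to 90695721. S100a8 lies at 90669071 to 90670034, with 22595 bases between it and S100a9, which runs on the opposite strand. S100a4 lies at 90603770 to 90606045, S100a6 at 90612894 to 90614414 and S100a13 at 90514233 to 90524581. S100a11, at 93520496 to 93526288, and S100a10, at 93555117 to 93564645, lie apart on the same chromosome, 2.86 Mb from the end of S100a9 to the start of S100a10. The promoter windows of S100a1 and S100a13, which point away from each other, share 204 bases. By 6 weeks in Mo S100a1 changed by 1.06 and passed, and S100a13 by 0.27 and did not (limma, adjusted p = 0.0621). These changes were not tested against each other.

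Dim S100 genes stand between these in the cluster: S100a14, S100a16, S100a3, S100a2, S100a5 and S100a7a. With these, 10 other genes of the family name were measured, inside or outside the cluster. 1 of the 10, S100pbp, encodes a binding partner and not an S100 protein. 0 of the 10 rose in either subset at 6 weeks over naive. In Mo S100a14, S100a16, S100a2, S100a3 and S100a5 fell by 0.34 to 0.51 on the log2 scale (adjusted p 0.0092 to 0.0433), and in PMN S100a16, S100a2, S100a3 and S100a5 fell by 0.39 to 0.47 (adjusted p 0.00793 to 0.03). Of all genes 24.4% fell in Mo and 40.0% in PMN. The 4 of 10 in PMN are near that share, so this count is no result about these genes. The median change of the 10 was -0.27 in Mo and -0.21 in PMN, beside -0.09 and -0.18 over all genes. The highest group means of the genes that fell were 6.12 to 6.87, and only S100a7a and S100pbp reached a group mean above 7. With median centring 1 of these genes fell in Mo (S100a2) and 0 in PMN, and with joint quantile normalization 0 in Mo and 1 in PMN (S100a16), while S100pbp rose in PMN under either. Of the measured neighbours before S100a1, Ilf2, a regulator of interleukin 2 transcription, rose by 1.12 in Mo and 0.62 in PMN, and Ints3 by 0.62 and 1.07. These 2 neighbours were named after their values were seen.

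**Figure D4:**
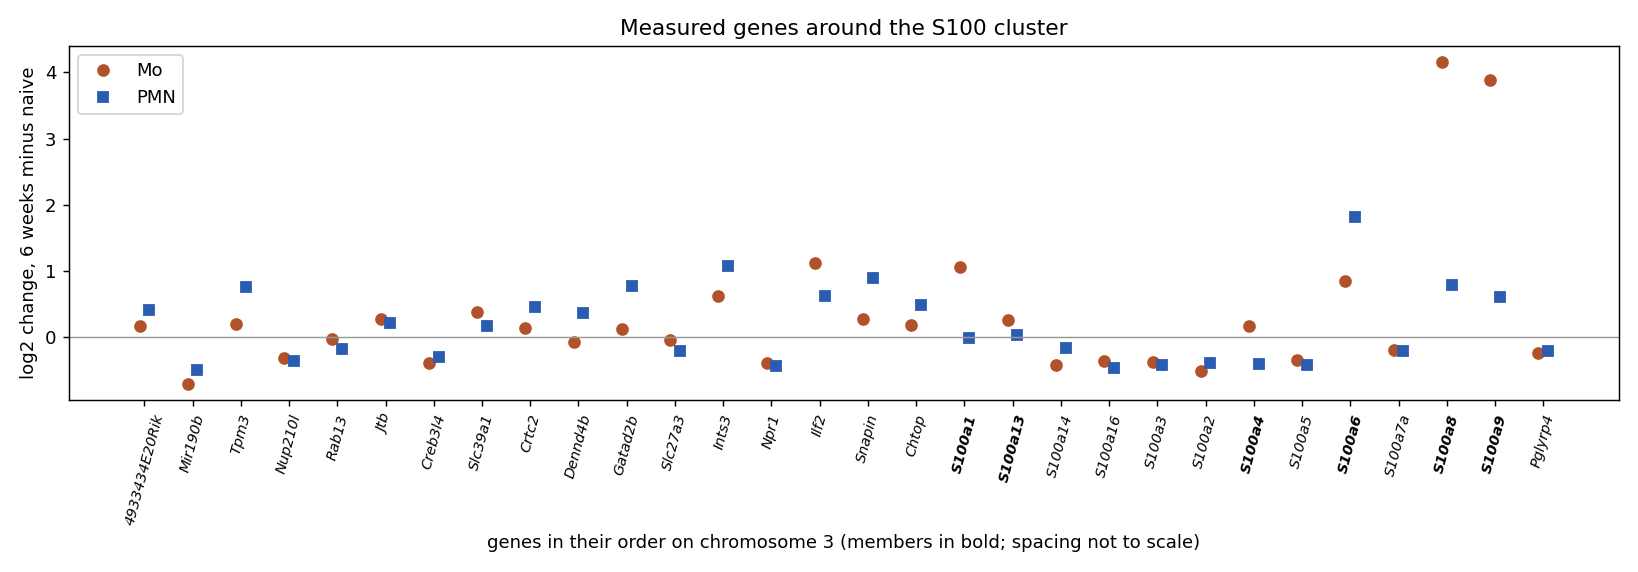
Log2 change at 6 weeks over naive in Mo (circles) and PMN (squares) of the measured genes around the S100 cluster, in their order on chromosome 3 (horizontal axis, spacing not to scale, members in bold). S100a8 and S100a9 reach 4.16 and 3.88 in Mo, while S100a14, S100a16, S100a3, S100a2 and S100a5 lie below 0 in both subsets.

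Receptors and sensors of extracellular S100 proteins were measured alongside. Of 12, 4 rose in Mo at 3 weeks over naive (Tlr4, Ly96, Myd88 and Bsg), 5 rose and 3 fell at 6 weeks, and 6 rose and 2 fell in PMN at 6 weeks. The share of all genes that passed was 6.03%, 46.2% and 65.4% in these comparisons, so the 8 of 12 called in PMN are near it. In Mo the lectin gene Cd33 averaged 10.50 at 6 weeks against 8.86 in naive (1.64 ± 0.21, adjusted p = 3.63e-05). Tlr4 rose by 1.16 ± 0.21 (adjusted p = 0.000657), Bsg, which encodes basigin, by 0.78 ± 0.12 and its relative Emb by 0.69 ± 0.11. The 3 that fell in Mo, named after their values were seen, were Cd36, Mcam and Ager, the gene of RAGE, and Ager did not pass with median centring (adjusted p = 0.115). In PMN Tlr4 rose by 1.23 ± 0.22 (adjusted p = 0.00023), Nptn by 0.63 ± 0.11 and Bsg by 0.57 ± 0.13, while the activation antigen gene Cd69 fell by 1.34 ± 0.15 on the log2 scale (adjusted p = 1.5e-06). With joint quantile normalization 0 of the 12 passed in Mo at 3 weeks.

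Annexins and other intracellular partners were next. Of 16 listed, Trp53 had no feature of its own; 4 of the other 15 rose in Mo at 3 weeks, 6 rose and 3 fell in Mo at 6 weeks, and 10 rose and 5 fell in PMN at 6 weeks over naive, where 6.03%, 46.2% and 65.4% of all genes passed. Anxa1, the partner of S100a11, averaged 12.75 at 6 weeks against 11.95 in naive Mo (0.80 ± 0.11, adjusted p = 6.84e-05), and 13.62 against 12.51 in PMN (1.11 ± 0.12, adjusted p = 1.11e-06). In Mo Sgta rose by 0.68 ± 0.13, Anxa11 by 0.74 ± 0.15 and Anxa2, the partner of S100a10, by 0.55 ± 0.13 (adjusted p = 0.00505). In PMN Anxa5 rose by 1.87 ± 0.14 (adjusted p = 4.25e-08), Anxa7 by 1.53 ± 0.15 and Anxa11 by 1.63 ± 0.16. Anxa2 also rose in PMN, by 1.02 ± 0.14 (adjusted p = 1.71e-05), where S100a10 fell. It was named there after its value was seen. With median centring 10 rose and 2 fell in PMN, and with joint quantile normalization 4 rose and 1 fell in Mo at 6 weeks, where the call of Anxa2 was lost (0.35, adjusted p = 0.0655).

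Subunits of the NADPH oxidase, to which S100A8 and S100A9 are known to carry arachidonic acid, and regulators of myeloid genes were counted as well. Of 7 oxidase genes 6 were measured. 1 rose in Mo at 3 weeks (Ncf4), 4 rose in Mo at 6 weeks and 6 rose in PMN at 6 weeks over naive, beside 5.20%, 21.8% and 25.5% of all genes that rose. Ncf4 rose by 1.10 ± 0.16 (adjusted p = 0.000105) in Mo, ahead of Cyba (0.60 ± 0.18), Ncf1 (0.54 ± 0.14) and Rac2 (0.52 ± 0.14). In PMN Ncf4 rose by 2.18 ± 0.17 (adjusted p = 5.89e-08), Cyba by 1.98 ± 0.19, Ncf1 by 1.67 ± 0.14 and Cybb by 1.55 ± 0.15. With joint quantile normalization 1 rose (Ncf4) and 1 fell (Cybb) in Mo at 6 weeks, the calls of Cyba, Ncf1 and Rac2 were lost (adjusted p 0.0586 to 0.0747), and 5 rose in PMN. Of 12 transcription factor genes 1 rose in Mo at 3 weeks (Stat3), 5 rose in Mo at 6 weeks, and 6 rose and 2 fell in PMN. The 5 of 12 called in Mo at 6 weeks and the 8 of 12 in PMN are near the 46.2% and 65.4% of all genes that passed, so these counts are no result about the factors. Myc rose by 1.22 ± 0.18 in Mo (adjusted p = 0.000109), with Klf4 at 0.64 ± 0.18, Irf8 at 0.62 ± 0.17 and Hif1a at 0.60 ± 0.12. In PMN Cebpe, a factor of late granulocyte maturation, rose by 1.24 ± 0.14 (adjusted p = 1.45e-06), Hif1a by 0.91 ± 0.13, Spi1, the gene of PU.1, by 0.82 ± 0.13 and Stat3 by 0.73 ± 0.11. With median centring 7 factors rose and 0 fell in PMN, and with joint quantile normalization 3 rose in Mo at 6 weeks (Gfi1, Hif1a and Myc), while the calls of Klf4 (adjusted p = 0.0837), Irf8 (0.0561) and Spi1 (0.208) were lost.

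Among the S100 genes themselves, Pearson's r over the 9 Mo arrays was 0.98 for S100a8 with S100a9, 0.95 for S100a8 with S100a1, 0.95 for S100a10 with S100a11 and 0.94 for S100a6 with S100a11. S100a4 had an r of 0.08 with S100a8 and of 0.77 with S100a6. Over the 8 PMN arrays r was 0.88 for S100a8 with S100a9, 0.975 for S100a8 with S100a6 and -0.64 for S100a8 with S100a10. These values describe arrays that share 3 stages, and are given without a test.

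Searched among 8979 genes with a mean of at least 7 over the Mo arrays, S100a8 was most like Lcn2, the specific granule gene of lipocalin 2 (r = 0.995), Pram1 (0.989) and Lbr (0.987). S100a9 was most like the decoy receptor gene Il1r2 (0.993), Lcn2 (0.991) and H2bc9 (0.987). S100a6 stood nearest to Alox5ap (0.996), Mgst1 (0.993) and Rbm43 (0.991), and S100a10 to Rab32 (0.994), Rab1a (0.991) and Lgals1 (0.990). S100a11 stood nearest to Mfsd1 (0.980), Gyg (0.976) and Tcn2 (0.974), and S100a4 to Mxd4 (0.976), Sgpl1 (0.969) and Ppt1 (0.968). Lcn2 was the only gene named for 2 of the 6 S100 genes. Over the 8 PMN arrays, among 7088 genes, the nearest were Sar1a to S100a8 (0.994), Acbd5 to S100a9 (0.995), Chic2 to S100a6 (0.996), Prr5l to S100a10 (0.973), Fhl3 to S100a11 (0.992) and, among 7089, Epor to S100a4 (0.988).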

How the data were processed

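RNA of 17 sorted samples was hybridized to Affymetrix Mouse Gene 1.0 ST arrays. The authors deposited 1 intensity per feature and array, on a linear scale, made with RMA (background subtraction, quantile normalization and summary of probes) per the submitters' processing notes. No version or setting of RMA is given in the sources used here. The log2 of each deposited intensity was taken. Of 35557 features 21789 carried 1 gene symbol in the platform annotation, 1621 several and 12147 none, and only the first kind were used, with the brightest feature of each of 999 genes that had several. The median intensity of an array was 95.3 to 114 for Mo and 81 to 95.9 for PMN, and no pair of arrays held identical values.

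The 17 arrays entered a single limma 3.58.1 model (R 4.3.3) with 6 group means. The 9 comparisons were two-sided, each adjusted by Benjamini-Hochberg over 19938 genes. The threshold was an adjusted p of 0.05. Errors of changes are standard errors from the fit. The labels do not say whether replicates came from separate pools of spleens, so p-values measure spread among arrays that could be technical, and 2 to 4 arrays a group limit the precision. The pipeline was tested on simulated data. Deviations of same-numbered Mo arrays had correlations of 0.628, 0.284 and 0.475 between 3 and 6 weeks. Replicate 2 of 3 weeks had 0.324 with replicate 3 of 6 weeks, and replicate 3 of 3 weeks 0.192 with replicate 2 of 6 weeks. The data thus do not settle whether the numbers pair these groups, and no label says so. For Mo at 6 over 3 weeks the replicate block changed no call of the 8 genes, but called 2374 genes in all, against 1497 without it. Against naive the same-numbered correlations in Mo were -0.089 to 0.609, below 0 for replicate 2 and 0.460 to 0.609 for replicates 1 and 3. In PMN the same-numbered correlations were -0.461 to 0.021. No groups were taken as paired in the main fit.

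Named are the 8 S100 genes, other S100 genes that passed or had a group mean above 7, at most 4 genes per partner list and comparison (smallest p), marker genes, and for 6 S100 genes the 3 genes of highest Pearson's r in each subset with a mean of at least 7, predicted genes apart. Exceptions are stated. The 8 genes, the lists and the markers were chosen with earlier results of these data known. Alternatives were joint quantile normalization, median centring, values under 6 raised to 6, dim genes left out, a subset fitted alone, eBayes with trend and robust, array weights, the mean of features, a replicate block and each array left out. Leaving out 3 Mo arrays together was chosen after seeing the data. Gene locations and promoters are from RefSeq on GRCm38.p6, and 7 of the 8 genes had a promoter entry.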

Additional observations from a re-analysis of the deposited data

Results flagged for a closer look

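The 6-week change over naive differed between the subsets, by the interaction term, for 6 of the 8 S100 genes. On the log2 scale Mo minus PMN was 3.37 for S100a8, 3.27 for S100a9, 1.58 for S100a10, 1.07 for S100a1, 0.50 for S100a11 and -0.97 for S100a6, where 17.5% of all genes passed. With median centring S100a6 (adjusted p = 0.0732) and S100a11 (0.0781) did not pass, nor did S100a6 with values under 6 raised to 6 (0.0676). S100a6 was also lost in 6 of the 12 fits that left out 1 array, and S100a11 without naive Mo replicate 2 (0.054) or 6-week PMN replicate 1 (0.113). The 6-week change over 3 weeks differed for 4 of the 8, by 2.11 for S100a8, 2.57 for S100a9, 1.07 for S100a10 and -1.47 for S100a6, where 29.2% of all genes passed, and S100a10 did not pass with median centring (0.0552). No array of an S100 gene stood outside its group by Dixon's test, which could be run in naive PMN, the only group of 4.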

How the results depend on the processing

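The number of S100 genes called was most open at 3 weeks. For Mo at 3 weeks over naive it was 5, and 2 with joint quantile normalization, 1 with values under 6 raised to 6, 0 with the Mo arrays fitted alone, 8 with array weights and 1 to 7 with 1 array left out. For the subset difference at 3 weeks it was 0, and 1 with joint quantile normalization, with the floor, with dim genes left out or with the mean of features, 8 with array weights, 2 with the replicate block, 3 with 3 Mo arrays left out together and 0 to 6 with 1 array left out. For PMN at 6 weeks over naive it was 6, and 3 with joint quantile normalization or the floor and 2 to 4 with 1 array left out. For PMN at 6 over 3 weeks it was 5, and 3 with joint quantile normalization or the floor and 2 to 3 with 1 array left out. With array weights, whose estimation stopped before reaching its tolerance, 5 passed in Mo at 6 over 3 weeks, against 3 as reported, 2 with the Mo arrays fitted alone and 2 to 4 with 1 array left out, and 7 in the subset difference of that change, against 4 as reported and 4 to 5 with 1 array left out. In Mo at 6 weeks over naive the count stayed within 1.5 times of 6 under all alternatives run. The change of S100a13 in PMN at 6 weeks over naive was -0.37 (adjusted p = 0.0058) with joint quantile normalization and 0.04 as deposited. The cause of these changes was not tested. The replicate block ended the PMN call of S100a4 (adjusted p = 0.101) and added S100a13 (0.0351) and S100a1 (0.0153) in Mo at 3 weeks and S100a13 (0.035) at 6 weeks over naive. Over all genes it called 5302 in Mo at 3 weeks over naive. Over all genes, 1202 were called in Mo at 3 weeks over naive, and 16 to 8911 with 1 array left out, 2 with the subset fitted alone and 15177 with array weights. S100a4 in PMN lay near 6, and with values under 6 raised to 6 its change at 6 weeks over naive was -0.02 (adjusted p = 1).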
